A study of Arabidopsis thaliana with 19 samples.

Results

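ASA1, IGPS and TSA1 encode enzymes of tryptophan synthesis in Arabidopsis thaliana, and each was followed by 1 probe set across all 19 arrays of the series. Anthranilate synthase turns chorismate, the end product of the shikimate pathway, into anthranilate, and ASA1 encodes a catalytic alpha subunit of this feedback-inhibited entry enzyme. Indole-3-glycerol phosphate synthase, IGPS, closes the indole ring, and TSA1 is the alpha subunit of tryptophan synthase, which releases indole for the beta subunit to join with serine. Tryptophan then feeds protein synthesis and auxin and, in Arabidopsis, also the indole glucosinolates and camalexin. ATR1 (also called MYB34) and MYB51 are R2R3 MYB transcription factors known as regulators of indole glucosinolates, whereas the related factors MYB28, MYB29 and MYB76 act mainly on the aliphatic glucosinolates made from methionine.

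The 3 members were the probe set that the array annotation lists for AT2G04400 (IGPS, 263807_at) and 2 probe sets chosen by their identifiers, 250738_at for ASA1 (AT5G05730) and 251847_at for TSA1 (AT3G54640). They are 3 of 22810 probe sets on the ATH1 array. The annotation table used here does not list the last pair, so the names ASA1 and TSA1 come from the way the members were chosen. All 3 were among the 15630 probe sets that passed the filter on low values.

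Total RNA came from seedlings 14 days old, grown in short days of 10 h light and 14 h dark at 20 °C, from which cotyledons and hypocotyls had been cut away. The arrays form 3 experiments with a wild type group each. In the first, wild type (WT_ATR1_MYB51, n = 2) stood beside seedlings overexpressing ATR1 (ATR1_OE, n = 2) or MYB51 (MYB51_OE, n = 2). The second held wild type (WT_MYB29_MYB76, n = 3) and overexpressors of MYB29 (MYB29_OE, n = 2) and MYB76 (MYB76_OE, n = 2). The third held wild type (WT_miR, n = 2) and seedlings titled 35S:ATR1_like_miR (n = 2) and 35S:MYB28_like_miR (n = 2), the 35S promoter of cauliflower mosaic virus driving a microRNA construct in each. The labels give neither the accession of the plants, nor the promoter of the overexpressors, nor how many independent lines a group holds. They also do not say whether replicates were grown apart, so each p-value rests on an array-to-array spread that may be technical. The title and the source field of MYB28_like_miR replicate 2 name different constructs, and the title was followed. That source field says 35S:ATR1, as does the one of ATR1_like_miR replicate 1.

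The values are MAS5 signals, a brightness per probe set that the deposited scaling sets to a trimmed mean of 250 on every array. The median signal of an array lay between 78.4 and 107, and the arrays of a group correlated with r between 0.911 and 0.986. Rubisco activase (RCA), the single measured gene of 13 listed leaf markers, had signals from 7056 to 13671. The root hair expansin EXPA7, the single one measured of 8 root markers, had 6.57 to 82.5, where each array's 20th percentile was 12.3 to 19.1. The probe sets of the MYB factors themselves are not named in the annotation used here, so overexpression or reduction of the targeted genes was not checked. In these bulk samples fewer cells of a type and less RNA per cell cannot be told apart. Log2 changes are differences of group means from limma with their SE, and "called" means an adjusted p under 0.05 over all 15630 probe sets tested.

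**Figure D1:**
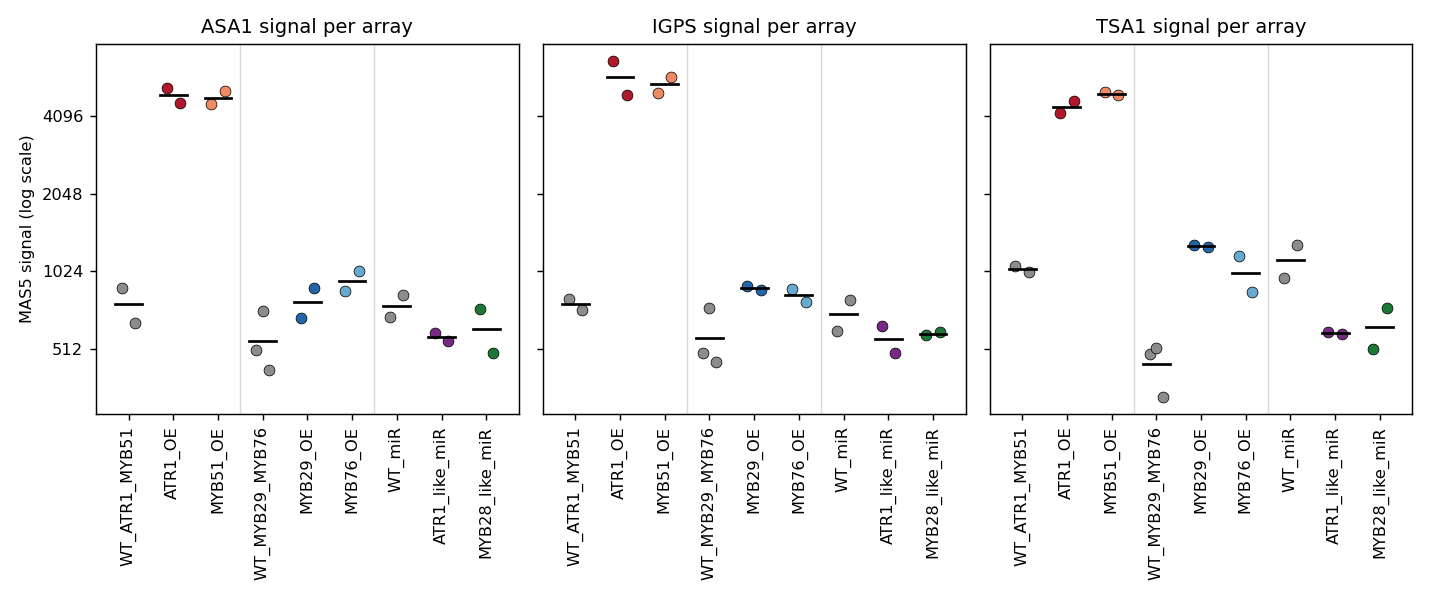
MAS5 signal on a log scale for ASA1, IGPS and TSA1 on each of 19 arrays, in the 9 groups. Points are arrays, horizontal bars are group means of the signal before log2, and vertical lines divide the 3 experiments. All 4 arrays of ATR1_OE and MYB51_OE lie at 4210 or above for every gene, and the 15 other arrays at 1297 or below.

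In seedlings overexpressing ATR1 or MYB51 the 3 genes rose together, by 6.55-fold and 6.39-fold for ASA1, 7.57-fold and 7.12-fold for IGPS, and 4.26-fold and 4.79-fold for TSA1, in that order of the lines. Of all probe sets tested, 5.54% were called higher in ATR1_OE and 0.889% in MYB51_OE, and all 3 members were called higher in both. Both lines were compared with the same 2 wild type arrays. Absence of overlap between so few arrays was common: 22.8% of all probe sets lay wholly above wild type in ATR1_OE and 15.0% in MYB51_OE. EXPA7 had log2 changes of -1.25 and -1.09 in the lines (limma adjusted p = 0.234 and 0.616), and the part of root tissue in the member changes was not tested.

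ASA1, the entry enzyme, had signals of 879 and 645 on the wild type arrays of this experiment. In ATR1_OE they were 5272 and 4611, and in MYB51_OE 4543 and 5098. Each array of an overexpressor stood far above both wild type arrays, and the arrays of the lines overlapped each other. This is a log2 change of 2.71 ± 0.26 (SE, limma adjusted p = 1.79e-05) in ATR1_OE and 2.68 ± 0.26 (limma adjusted p = 3.13e-05) in MYB51_OE.

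IGPS, whose product carries the finished indole ring, was measured at 798 and 726 in wild type. The ATR1_OE arrays read 6705 and 4946, and the MYB51_OE arrays 5044 and 5825. Wild type and overexpressors did not overlap, and the arrays of the lines again did. Its log2 change was 2.92 ± 0.24 (limma adjusted p = 3.67e-06) in ATR1_OE and 2.83 ± 0.24 (limma adjusted p = 1.02e-05) in MYB51_OE. Among all probe sets it ranked 65th by size of rise in ATR1_OE, with 0.409% of probe sets rising more, and 33rd in MYB51_OE, with 0.205% rising more.

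TSA1, which frees indole in the last stage, began from 1069.8 and 1021 in wild type. It reached 4209.8 and 4699.9 in ATR1_OE and 5079.8 and 4929.9 in MYB51_OE. Neither line overlapped wild type, and both MYB51_OE arrays lay above both ATR1_OE arrays, an order that 25.2% of all probe sets showed. The log2 change was 2.09 ± 0.24 (limma adjusted p = 7.62e-05) in ATR1_OE and 2.26 ± 0.24 (limma adjusted p = 7.6e-05) in MYB51_OE.

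None of the 3 genes was called different between ATR1_OE and MYB51_OE, a comparison in which 2.67% of probe sets were called. The leaf marker RCA was among those, 0.53 higher in ATR1_OE on the log2 scale (limma adjusted p = 0.0493). The log2 difference, ATR1_OE minus MYB51_OE, was 0.03 for ASA1 with a 95% confidence interval from -0.52 to 0.59. For IGPS it was 0.09, from -0.42 to 0.60, and for TSA1 -0.17, from -0.68 to 0.34. Equality is not shown by these values, since the intervals still hold differences of either sign. The sign for ASA1 and IGPS turned under quantile normalization and without ATR1_OE replicate 1 or MYB51_OE replicate 1.

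Within this experiment the fold of TSA1 was smaller than those of ASA1 and IGPS, and that unequal change was tested on the log2 ratio of 2 members on the same array. The log2 ratio of IGPS to TSA1 was 0.70 higher on the 4 overexpressor arrays than on the 2 wild type arrays (exact permutation test, two-sided p = 0.133, adjusted p = 0.2 over 3 ratios). For ASA1 to TSA1 the difference was 0.52 (exact permutation p = 0.133, adjusted p = 0.2), and for IGPS to ASA1 it was 0.18 (exact permutation p = 0.4, adjusted p = 0.4). With 4 arrays against 2 the smallest p this test allows is 0.133, so it could not pass the threshold. The test also took the arrays of both lines as 1 group, although they are different genotypes. For IGPS to TSA1 the log2 ratio was 0.67 and 0.07 in ATR1_OE and -0.01 and 0.24 in MYB51_OE.

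The other measured genes of the pathway were not called in either line. Of 15 listed genes of tryptophan synthesis 5 were measured, ASA1 and TSA1 among them only because their probe sets were chosen by identifier. Besides the members these were AT5G48220, a second indole-3-glycerol phosphate synthase gene (IGPS2), and AT4G02610, which encodes the TSA1-related indole synthase INS. IGPS2 read 878 and 919 in wild type, 794 and 803 in ATR1_OE, and 889 and 1014 in MYB51_OE. INS read 139 and 146 in wild type, 128 and 116 in ATR1_OE, and 126 and 100.9 in MYB51_OE. The log2 changes in ATR1_OE and MYB51_OE were -0.17 and 0.08 for IGPS2 (limma adjusted p = 0.614 and 0.932) and -0.22 and -0.33 for INS (limma adjusted p = 0.641 and 0.737). The median over all probe sets was -0.13 and -0.07. The 3 of 5 genes that rose in each line are the members themselves, so the count adds nothing about the rest of the pathway.

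Upstream of chorismate, 2 of 10 listed shikimate pathway genes were measured. AT5G66120, which encodes 3-dehydroquinate synthase (DHQS), read 899.6 and 818 in wild type, 2513 and 2859 in ATR1_OE and 2096 and 1993 in MYB51_OE. No overexpressor array overlapped wild type. DHQS rose 3.12-fold in ATR1_OE (log2 1.64 ± 0.19, limma adjusted p = 8.01e-05) and 2.38-fold in MYB51_OE (log2 1.25 ± 0.19, limma adjusted p = 0.00189). DHS3 (AT1G22410), an isoform of the enzyme that opens the shikimate pathway, changed 1.92-fold and 2.29-fold, which did not pass the test in the single lines (limma adjusted p = 0.072 and 0.123). In the mean of both lines DHS3 was called, with a log2 change of 1.07 (limma adjusted p = 0.0417), where 2.9% of probe sets were called higher. That call was lost without either wild type array, ATR1_OE replicate 1 or MYB51_OE replicate 2, with values from 0.79 to 1.35. Over all alternatives the call of DHS3 was lost under 6 of 16.

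On the neighbouring branches few genes were measured. Of 12 listed genes of phenylalanine and tyrosine synthesis 2 were measured, TYRA1 and TYRA2. TYRA2 had log2 changes of -0.54 in ATR1_OE and 0.21 in MYB51_OE, neither of them called (limma adjusted p = 0.168 and 0.829). TYRA1 (AT5G34930), an arogenate dehydrogenase of tyrosine synthesis, read 110.0 and 81.3 in wild type and 41.6 and 48.9 in ATR1_OE, a fall of 1.07 on the log2 scale (limma adjusted p = 0.0385). In MYB51_OE its log2 change was -0.65 (limma adjusted p = 0.49), and the call in ATR1_OE was lost without any one of the 4 arrays, with adjusted p from 0.0749 to 0.206, and under 10 of 13 alternatives in all. Neither measured phosphoribosyl diphosphate synthase gene, PRS1 or PRS4, whose product is the sugar donor of the pathway, was called in ATR1_OE or MYB51_OE.

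Downstream of tryptophan, UGT74B1 (AT1G24100), the glucosyltransferase of the glucosinolate core pathway, was the single measured gene of 15 listed. Its signals of 498 and 201 in wild type stood against 2428 and 2624 in ATR1_OE and 1961 and 2922 in MYB51_OE. It rose 7.98-fold in ATR1_OE (limma adjusted p = 0.000265) and 7.57-fold in MYB51_OE (limma adjusted p = 0.000635). The size rests on the unequal wild type arrays: as log2 changes the values were 3.65 and 3.58 without wild type replicate 1 and 2.34 and 2.26 without replicate 2, called in each case. Of 16 listed genes that make auxin from tryptophan 3 were measured, the flavin monooxygenase genes YUC2, YUC4 and YUC6, and none was called in any of the 6 comparisons with wild type. YUC4 read 65.4 and 4.64 in WT_ATR1_MYB51, 6.34 and 5.19 in ATR1_OE and 20.9 and 7.14 in MYB51_OE. The lower wild type array, both ATR1_OE arrays and MYB51_OE replicate 2 lay below their array's 20th percentile. A missing call for YUC4 there says little. None of 4 listed camalexin genes was measured by a named probe set.

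**Figure D2:**
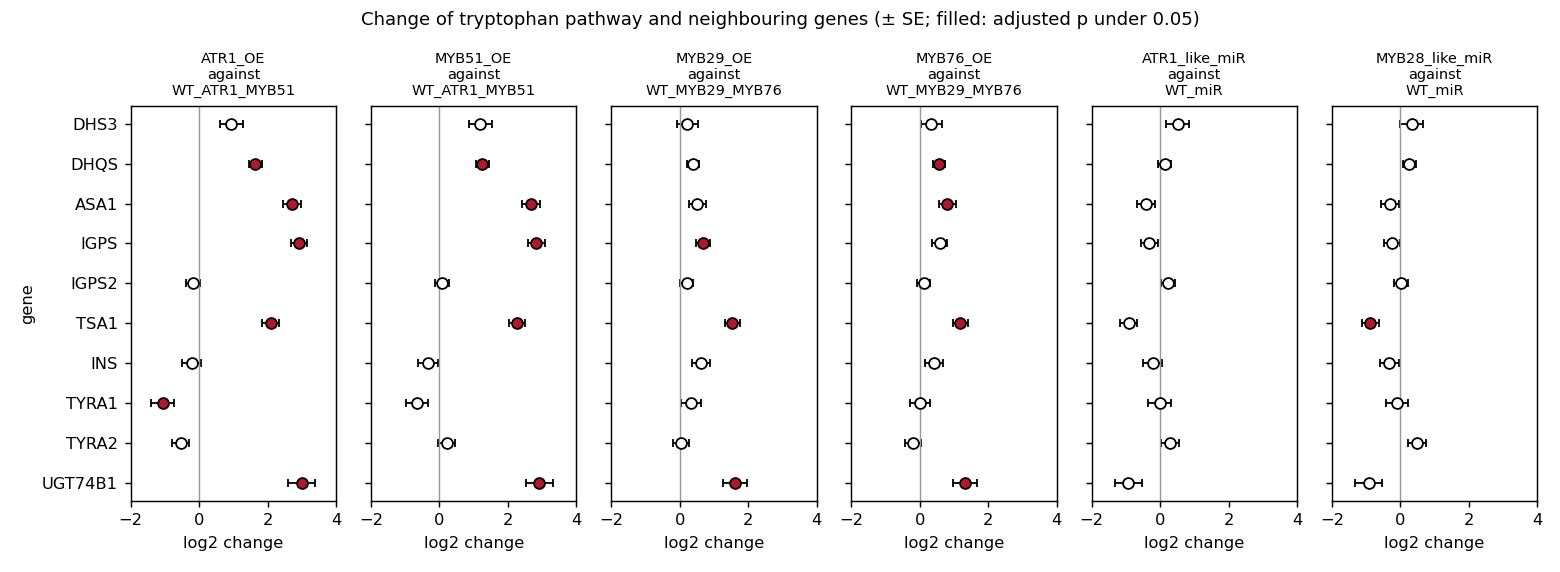
Log2 change (x axis, ± SE) of the members and of neighbouring pathway genes in each of the 6 comparisons with wild type, ordered from the shikimate pathway at the top to glucosinolate synthesis at the bottom. Filled points have an adjusted p under 0.05. DHQS, ASA1, IGPS, TSA1 and UGT74B1 are filled in both ATR1_OE and MYB51_OE, and IGPS2 and INS are open in all 6 panels.

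In seedlings overexpressing MYB29 or MYB76, TSA1 rose in both lines, by 2.91-fold in MYB29_OE and 2.28-fold in MYB76_OE. IGPS rose in MYB29_OE by 1.61-fold and ASA1 in MYB76_OE by 1.75-fold, and the other pair of changes did not pass the test. Thus 2 of 3 members were called higher in each line, beside 8.09% of all probe sets called higher in MYB29_OE and 7.15% in MYB76_OE. Both lines were compared with the same 3 wild type arrays. Wholly above wild type lay 25.6% of all probe sets in MYB29_OE and 25.8% in MYB76_OE.

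ASA1 had wild type signals of 505, 720.4 and 425 in this experiment. The MYB29_OE arrays read 672 and 882, of which the lower lay inside the wild type range, and the MYB76_OE arrays read 858 and 1022, above it. The log2 change was 0.52 ± 0.24 in MYB29_OE (limma adjusted p = 0.151) and 0.80 ± 0.24 in MYB76_OE (limma adjusted p = 0.0392). Without wild type replicate 2, the highest of the wild type arrays, the change in MYB29_OE was 0.73 and passed (limma adjusted p = 0.0374). The call in MYB76_OE was lost without wild type replicate 1 or 3 or without either MYB76_OE array, with adjusted p from 0.0927 to 0.258.

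IGPS read 495, 741 and 455 in wild type, 899 and 869 in MYB29_OE, and 875 and 777 in MYB76_OE. All 4 overexpressor arrays lay above the 3 wild type arrays. Against wild type the log2 change was 0.68 ± 0.22 in MYB29_OE (limma adjusted p = 0.0472) and 0.58 ± 0.22 in MYB76_OE (limma adjusted p = 0.0902). The call in MYB29_OE was lost without wild type replicate 1 or 3 or either MYB29_OE array (adjusted p from 0.123 to 0.23), and the change in MYB76_OE passed without wild type replicate 2 (0.80, limma adjusted p = 0.0152).

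TSA1 had the lowest wild type signals of the series here, 489.7, 518 and 334. It read 1293 and 1267 in MYB29_OE and 1176 and 849 in MYB76_OE, with no overlap. Its log2 change was 1.54 ± 0.22 in MYB29_OE (limma adjusted p = 0.000484) and 1.19 ± 0.22 in MYB76_OE (limma adjusted p = 0.00309). Without MYB76_OE replicate 1 the change in that line was 0.95 and missed the threshold (limma adjusted p = 0.0882).

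MYB29_OE and MYB76_OE were not called different from each other for any member, in a comparison that called 0.0256% of probe sets. The log2 difference, MYB29_OE minus MYB76_OE, was -0.28 for ASA1 (95% confidence interval -0.84 to 0.27), 0.10 for IGPS (-0.41 to 0.61) and 0.36 for TSA1 (-0.15 to 0.87). Among the neighbouring genes UGT74B1 rose, by 1.62 in MYB29_OE (limma adjusted p = 0.00948) and by 1.32 in MYB76_OE (limma adjusted p = 0.0275) on the log2 scale. DHQS had a log2 change of 0.39 in MYB29_OE (limma adjusted p = 0.141) and rose by 0.55 in MYB76_OE (limma adjusted p = 0.0494). PRS1 (AT2G35390), a phosphoribosyl diphosphate synthase, rose by 0.88 in MYB29_OE (limma adjusted p = 0.0468). Leaving out single arrays ended 4 of these calls. Those of UGT74B1 and DHQS in MYB76_OE were lost without wild type replicate 1 or 3 or either MYB76_OE array, with adjusted p from 0.0563 to 0.194 and from 0.11 to 0.345. That of PRS1 was lost without wild type replicate 1 or 2 or either MYB29_OE array (adjusted p from 0.0689 to 0.199), and that of UGT74B1 in MYB29_OE without MYB29_OE replicate 2 (1.44, limma adjusted p = 0.133). Other settings also ended the calls of DHQS in MYB76_OE, lost under 13 of 15 alternatives, and of PRS1, lost under 12 of 15. Over all alternatives, the call of UGT74B1 was lost under 7 of 15 in MYB76_OE and 2 of 15 in MYB29_OE.

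The rises in the 2 overexpression experiments were compared in 1 contrast, the mean change of ATR1_OE and MYB51_OE minus the mean change of MYB29_OE and MYB76_OE, each against its own wild type. For ASA1 the mean changes were 2.69 and 0.66, and they differed by 2.03 ± 0.30 (limma adjusted p = 0.000685). For IGPS they were 2.88 and 0.63, a difference of 2.24 ± 0.28 (limma adjusted p = 0.000175). TSA1 changed by 2.17 and 1.36, and the difference of 0.81 ± 0.28 did not pass (limma adjusted p = 0.055). All 6 mean changes were called, beside 2.9% of probe sets called higher in the first mean and 13.1% in the second, and 6.87% were called higher in the contrast. The mean change of MYB29_OE and MYB76_OE lost its call for IGPS without wild type replicate 1 or 3, either MYB29_OE array or MYB76_OE replicate 1 (adjusted p from 0.051 to 0.0958), and for ASA1 without wild type replicate 1 or 3 or replicate 2 of either line (adjusted p from 0.0852 to 0.121). Without WT_MYB29_MYB76 replicate 3, which had the lowest TSA1 signal, the TSA1 difference was 1.01 and passed (limma adjusted p = 0.0184), and it passed at 0.93 without MYB76_OE replicate 1 (limma adjusted p = 0.0472).

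In the microRNA experiment 1 of the 6 member changes passed the test. All 6 were below 0, where the median log2 change of all probe sets was -0.10 in ATR1_like_miR and -0.14 in MYB28_like_miR. TSA1 fell by 0.87 on the log2 scale in MYB28_like_miR (limma adjusted p = 0.0428), beside 4.37% of probe sets called lower in that comparison. No member was called in ATR1_like_miR, where 1.15% of probe sets were called lower. The 2 wild type arrays are shared by both comparisons. Wholly below them lay 32.5% of all probe sets in ATR1_like_miR and 36.6% in MYB28_like_miR.

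ASA1 read 678 and 826 in WT_miR, 588 and 549 in ATR1_like_miR, and 733 and 494 in MYB28_like_miR. Its log2 change was -0.40 ± 0.26 in ATR1_like_miR (limma adjusted p = 0.492), without overlap, and -0.31 ± 0.26 in MYB28_like_miR (limma adjusted p = 0.509), where the arrays overlapped. IGPS read 599.5 and 794 in WT_miR, 626 and 492 in ATR1_like_miR, and 578 and 594 in MYB28_like_miR. The log2 changes of IGPS were -0.31 ± 0.24 (limma adjusted p = 0.56) and -0.24 ± 0.24 (limma adjusted p = 0.594), and the confidence intervals reached down to -0.82 and -0.74. The ATR1_like_miR arrays overlapped wild type, and the MYB28_like_miR arrays lay just below it.

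TSA1 read 967 and 1297 in WT_miR, 597 and 586 in ATR1_like_miR, and 511 and 735 in MYB28_like_miR. All 4 arrays of the microRNA lines lay below both wild type arrays. The log2 change was -0.92 ± 0.24 in ATR1_like_miR (limma adjusted p = 0.0609) and -0.87 ± 0.24 in MYB28_like_miR. The call in MYB28_like_miR was lost without any one of its 4 arrays, with adjusted p from 0.0535 to 0.236. When MYB28_like_miR replicate 2 was counted with ATR1_like_miR, on the reading that the 35S:ATR1 of its source field means the group of the other array so described, the change in ATR1_like_miR was -0.82 and passed (limma adjusted p = 0.0485), while that in MYB28_like_miR was -1.13 and did not (limma adjusted p = 0.0645).

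Between the microRNA lines no member was called, and 0.032% of all probe sets were. The log2 difference, ATR1_like_miR minus MYB28_like_miR, was -0.08 for ASA1, -0.08 for IGPS and -0.05 for TSA1, with confidence intervals reaching from about -0.64 to 0.47 for ASA1 and -0.56 to 0.46 for TSA1. UGT74B1 had log2 changes of -0.92 and -0.93 against wild type that were not called (limma adjusted p = 0.257 and 0.17). None of the other measured genes of tryptophan, shikimate, phenylalanine or tyrosine synthesis was called in either microRNA line.

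Ordered by mean log2 signal, ATR1_OE and MYB51_OE held the first and second place for ASA1 and IGPS, and MYB51_OE and ATR1_OE for TSA1. ASA1 averaged 4942 ± 467 (SD, n = 2) in ATR1_OE and 4821 ± 392 in MYB51_OE, and the next group, MYB76_OE, averaged 940.3 ± 116. That step of 2.36 on the log2 scale was called (limma adjusted p = 5.23e-05). IGPS averaged 5826 ± 1244 in ATR1_OE and 5434 ± 553 in MYB51_OE, and was 2.62 above MYB29_OE at 884 ± 21.4 (limma adjusted p = 7.02e-06). TSA1 averaged 5005 ± 106 in MYB51_OE and 4455 ± 347 in ATR1_OE, 1.80 above MYB29_OE at 1280.0 ± 18.5 (limma adjusted p = 0.000184). No other step between neighbours in these orders was called. The called steps lie between lines of different experiments, so experiment and transcription factor cannot be told apart in them. The neighbours were picked by ranking these same values, and the share of all probe sets called in these pairs was not counted. The lowest place by mean log2 signal fell to WT_MYB29_MYB76 for all 3 genes, at 550.1 ± 153 for ASA1, 564 ± 155 for IGPS and 447 ± 99.2 for TSA1 (SD, n = 3). For IGPS the log2 gap to ATR1_like_miR was only 0.0116, and the mean signal of ATR1_like_miR was lower, at 559 ± 95.2 (SD, n = 2).

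The 3 wild type groups did not read alike for TSA1. It averaged 1045 ± 34.5 in WT_ATR1_MYB51 and 1132 ± 233 in WT_miR (SD, n = 2 each), against 447 ± 99.2 in WT_MYB29_MYB76. The log2 difference from WT_MYB29_MYB76 was 1.25 (limma adjusted p = 0.00434) and 1.35 (limma adjusted p = 0.000826), and it stayed called without any one of the wild type arrays, between 1.05 and 1.56. In those 2 comparisons 6.69% and 21.1% of all probe sets were called. The log2 difference of TSA1, WT_ATR1_MYB51 minus WT_miR, was -0.10 (limma adjusted p = 0.84), in a comparison that called 13% of probe sets. For ASA1 and IGPS the same differences were between 0.33 and 0.49 and were not called. Without WT_MYB29_MYB76 replicate 2 they passed for IGPS against WT_ATR1_MYB51 (0.68, limma adjusted p = 0.0491) and for ASA1 against WT_miR (0.69, limma adjusted p = 0.0383). Batch and experiment cannot be told apart in this design.

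The choice of wild type bore on the smaller changes. Against all 7 wild type arrays the log2 change of TSA1 was 0.80 in MYB29_OE (limma adjusted p = 0.393), 0.44 in MYB76_OE (limma adjusted p = 0.675) and -0.26 in MYB28_like_miR (limma adjusted p = 0.739). With only the wild type of the other experiments as control it was 0.24, -0.11 and -0.02. Under the same changes of control, the 3 members kept log2 changes between 2.60 and 3.26 in ATR1_OE and MYB51_OE, and all 12 of these values were called. Over the alternatives that kept every array, 1108 to 4326 probe sets were called in either direction in ATR1_OE. In MYB51_OE these were 97 to 1225. The share of all probe sets called under the changed controls alone is not given here.

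**Figure D3:**
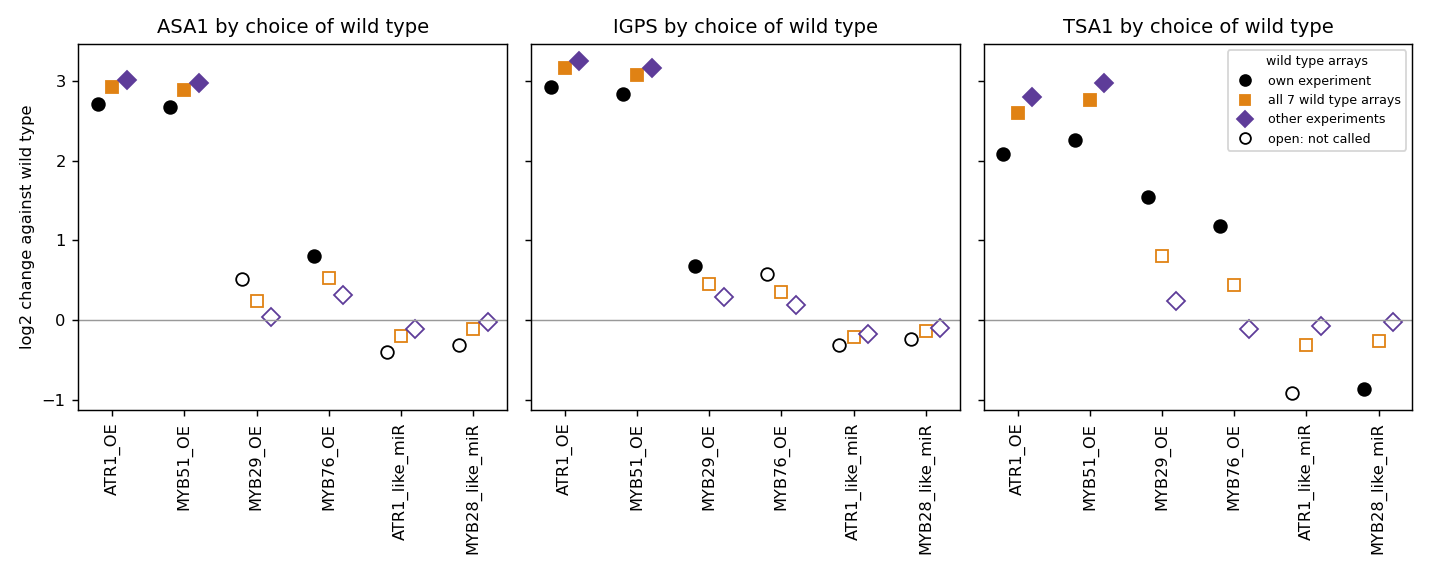
Log2 change of ASA1, IGPS and TSA1 in each line against its own wild type arrays (circles), all 7 wild type arrays (squares) or only those of the other experiments (diamonds). Filled symbols have an adjusted p under 0.05. In ATR1_OE and MYB51_OE every symbol is filled and lies at 2.09 or above, whereas TSA1 in MYB29_OE moves from 1.54 to 0.80 and 0.24 and is open for both other choices.

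One property of the arrays ran beside the level of TSA1 outside ATR1_OE and MYB51_OE. The median log2 signal of 69 plastid-encoded probe sets was 8.01 to 11.3 on the 7 arrays of WT_MYB29_MYB76, ATR1_like_miR and MYB28_like_miR, and 4.64 to 6.38 on the 12 others. TSA1 read 334 to 735 (median 518) on those 7 arrays and 849 to 1297 (median 1123) on the 8 arrays of WT_ATR1_MYB51, MYB29_OE, MYB76_OE and WT_miR, without overlap. The ranges of IGPS, 455 to 741 and 599.5 to 899, and of ASA1, 425 to 733 and 645 to 1022, overlapped. The share of all probe sets that separate these arrays without overlap was not counted, so how unusual TSA1 is here was not tested. In the MYB29 and MYB76 experiment and in the microRNA experiment the high and low plastid-encoded signals fall exactly between wild type and lines, so their part in the member changes cannot be told apart from that of the genotype. When this plastid signal entered the model as a covariate, TSA1 in MYB29_OE changed by 2.02 (limma adjusted p = 0.0368) and in MYB76_OE by 1.68 (limma adjusted p = 0.0793). These values extend a slope fitted within groups across the gap between wild type and lines. Whether the rise of TSA1 is separate from the plastid signal was therefore not tested.

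In the ATR1 and MYB51 experiment the plastid-encoded signal was low on all 6 arrays, 5.29 to 6.38. With the covariate the changes of ASA1, IGPS and TSA1 were 2.78, 2.94 and 2.14 in ATR1_OE and 2.72, 2.85 and 2.29 in MYB51_OE, as large as without it. The group means of the plastid signal lay close together here, 5.91 in WT_ATR1_MYB51, 5.45 in ATR1_OE and 5.62 in MYB51_OE. The covariate therefore had little room to move these changes, and the part of plastid signal in them was not tested.

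**Figure D4:**
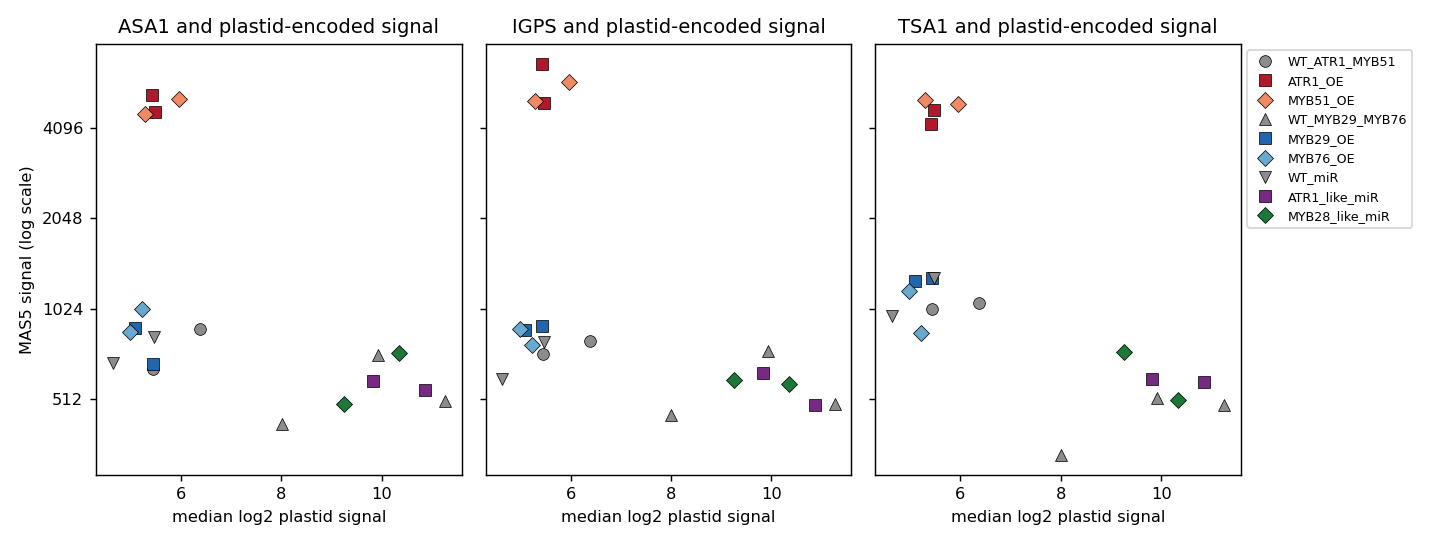
Signal of ASA1, IGPS and TSA1 (y axis, MAS5 signal on a log scale) against the median log2 signal of plastid-encoded probe sets of the same array (x axis), 1 point per array. The 7 arrays right of 8 on the x axis all read TSA1 at 735 or below, and the ATR1_OE and MYB51_OE arrays stand apart at the upper left.

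Across the 19 arrays the members' log2 signals ran closely together, as a description in which ATR1_OE and MYB51_OE set most of the range. ASA1 and IGPS had r = 0.988, and each was the other's closest of 15629 probe sets. IGPS and TSA1 had r = 0.950, and ASA1 and TSA1 had r = 0.939. On the 15 arrays outside ATR1_OE and MYB51_OE, r was 0.809 for ASA1 with IGPS, 0.840 for IGPS with TSA1 and 0.674 for ASA1 with TSA1. The points share arrays, scaling and wild type groups.

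Among the 8577 tested probe sets with 1 listed gene, the most similar to IGPS across the 19 arrays were YLS5 (AT2G38860, r = 0.970), a gene named for its expression in yellowing leaves, then AT5G66120 (DHQS, 0.963), AT2G36290 (0.941) and AT1G77260 (0.904). The same 4 genes stood closest to ASA1, with r of 0.961, 0.946, 0.926 and 0.924. For TSA1 they were AT1G06550 (0.948), YLS5 (0.921), AT2G45870 (0.913) and AT5G66120 (0.909). YLS5 averaged 391 ± 108 (SD, n = 2) in WT_ATR1_MYB51, 2944 ± 33.3 in ATR1_OE and 3424 ± 612 in MYB51_OE, and its 15 other arrays lay between 180.4 and 498. AT1G06550 averaged 140.1 ± 34.4 in WT_MYB29_MYB76 (n = 3), 567 ± 14.7 in MYB29_OE and 421 ± 23.7 in MYB76_OE, a step between wild type and lines that YLS5, at 267 ± 19.5, 421 ± 109 and 239 ± 0.955, did not show in MYB76_OE. After subtracting each experiment's wild type mean, YLS5 remained the closest for IGPS and ASA1, and for TSA1 its place among the named genes moved from 2 to 73.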

How the data were processed

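The deposited values are MAS5 intensity signals of 19 ATH1 arrays, 1 per sample; MAS5 is named in the submitters' processing notes without a version. In the deposited values every array has a mean of 250 after trimming 2% at each end, a scaling made by the authors, so only relative levels can be compared. Signals below an array's 20th percentile were raised to it, log2 was taken, 64 control probe sets were left out, and probe sets at or above the 40th percentile on at least 2 arrays were tested. One model with 9 group means was fitted with limma 3.58.1 in R 4.3.3 (lmFit, eBayes with trend, 10 residual degrees of freedom), two-sided, with Benjamini-Hochberg adjustment over all 15630 probe sets. The code was tested on simulated data. Figures used matplotlib 3.10.9 and Python 3.11.15, and the exact permutation test scipy 1.17.1.

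Arrays were grouped by title. Of 22810 probe sets 13513 had 1 listed gene, 503 several and 8794 none; symbols came from the RefSeq table of assembly TAIR10.1 and, for DHQS, IGPS2, INS and IGPS itself, from the gene lists. A probe set with no listed gene is unnamed here. Of 103 genes in 9 lists 17 were named on the array, ASA1 and TSA1 among them. The genes named are the members, list genes that passed the test, and for each member the 4 named probe sets of highest r; list genes that did not pass are given beside them for contrast. Members and lists were chosen with earlier results of these data known. No depth applies to arrays, and the number of arrays limits precision. Same-numbered arrays of an experiment did not deviate together (r from -0.217 to 0.158), so numbers were not taken as pairs. Alternatives covered scaling, floor, filter, variance model, arrays in the fit, replicate number, control arrays, plastid-encoded signal, 1 doubtful label and leaving out each array.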

Additional observations from a re-analysis of the deposited data

Results flagged for a closer look

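ASA1 and IGPS rose more in ATR1_OE and MYB51_OE than in MYB29_OE and MYB76_OE, by a test of the difference between the mean changes. The difference on the log2 scale was 2.03 for ASA1 (limma adjusted p = 0.000685) and 2.24 for IGPS (limma adjusted p = 0.000175). Each pair of lines was set against its own wild type, so experiment and transcription factor cannot be told apart. With the signal of plastid-encoded probe sets in the model the difference was 2.03 for IGPS (limma adjusted p = 0.0374) and 1.41 for ASA1 (limma adjusted p = 0.106). In the MYB29 and MYB76 experiment this covariate cannot separate plastid signal from genotype.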

How the results depend on the processing

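The 36 member results (3 genes in 12 contrasts) gave 537 values under the alternatives, of which 458 kept direction and side of the threshold, 59 lost and 9 gained a call, and 11 turned sign. Every change of ASA1, IGPS and TSA1 in ATR1_OE, in MYB51_OE and in their mean stayed called under every alternative run, between 2.01 and 3.26. The cause of the changes below was not tested.

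Quantile normalization moved the median change of all probe sets by 0.12 in ATR1_OE and 0.11 in MYB28_like_miR, and the share of calls that were higher from 36.6% to 47.8%, from 32.0% to 50.0% and, in ATR1_like_miR, from 43.2% to 56.7%. Relative to that shift the members kept their direction against wild type; TSA1 in ATR1_like_miR was called (-1.04), and between ATR1_OE and MYB51_OE the sign turned for IGPS (-0.022) and ASA1 (-0.024). The floorless log2 gave a called TSA1 difference between experiments of 0.83. Without the filter the calls of IGPS in MYB29_OE (0.68, adjusted p = 0.0584) and TSA1 in MYB28_like_miR (-0.87, adjusted p = 0.053) were lost, and so they were without trend, with ASA1 in MYB76_OE (0.80, adjusted p = 0.0525). Within the own experiment's arrays these 3 calls were also lost, as were those of the mean of MYB29_OE and MYB76_OE for IGPS (0.63, adjusted p = 0.0588) and ASA1 (0.66, adjusted p = 0.067).

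With the replicate number as a block, although numbers do not pair the arrays, calls were lost for IGPS in MYB29_OE (0.55), ASA1 in MYB76_OE (0.63) and the mean of both lines (IGPS 0.50, ASA1 0.49), and gained for TSA1 in ATR1_like_miR (-0.92) and in the difference between experiments (1.01). The block changed no other member call.

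With the plastid covariate the values whose calls were lost were IGPS 0.92 in MYB29_OE, ASA1 1.49 and TSA1 1.68 in MYB76_OE, IGPS 0.87 and ASA1 1.34 in the mean of these lines, TSA1 -1.38 in MYB28_like_miR and ASA1 1.41 in the difference between experiments. Against all 7 wild type arrays they were IGPS 0.46 and TSA1 0.80 in MYB29_OE, ASA1 0.53 and TSA1 0.44 in MYB76_OE, IGPS 0.41, ASA1 0.39 and TSA1 0.62 in their mean, and TSA1 -0.26 in MYB28_like_miR. Against the other experiments' wild type they were 0.29 and 0.24, 0.32 and (sign turned) -0.11, 0.24, 0.18 and 0.064, and -0.020 in the same order. Counting the doubtful array with ATR1_like_miR, 1 reading of its source field, gave TSA1 -0.82 (called) in ATR1_like_miR, -1.13 (not called) in MYB28_like_miR and 0.32 (sign turned) between them.

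Leaving out single arrays gave IGPS 0.55 to 0.90 in MYB29_OE, 0.45 to 0.80 in MYB76_OE and 0.50 to 0.85 in their mean; ASA1 0.33 to 0.73, 0.63 to 1.02 and 0.49 to 0.87; TSA1 0.95 to 1.42 in MYB76_OE, -1.13 to -0.61 in MYB28_like_miR and 0.69 to 1.01 between experiments. Between ATR1_OE and MYB51_OE it gave -0.13 to 0.31 for IGPS and -0.062 to 0.13 for ASA1, and between the microRNA lines -0.25 to 0.096 for IGPS, -0.37 to 0.20 for ASA1 and -0.31 to 0.21 for TSA1. Among the neighbouring genes, quantile normalization and the fit without the filter ended the calls of DHQS in MYB76_OE (adjusted p = 0.056 and 0.055), PRS1 in MYB29_OE (0.0693 and 0.0743) and TYRA1 in ATR1_OE (0.0796 and 0.0639), and the floorless log2 that of DHQS (0.0519). A lone array left in a group is assumed to vary like the other groups. The count of called probe sets ranged more widely over all alternatives: 791 to 4326 in ATR1_OE (2369 as reported), 90 to 1225 in MYB51_OE (215), 207 to 2865 in MYB29_OE (2301), 218 to 2658 in MYB76_OE (1994), 13 to 3004 in ATR1_like_miR (315), 41 to 2794 in MYB28_like_miR (1005), 10 to 713 between ATR1_OE and MYB51_OE (417), 1 to 21 between MYB29_OE and MYB76_OE (4), 0 to 24 between the microRNA lines (5), 231 to 3934 in the mean of ATR1_OE and MYB51_OE (1018), 275 to 3967 in that of MYB29_OE and MYB76_OE (3637) and 430 to 3470 in the difference between experiments (2820).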
